A study of Homo sapiens with 8 samples.

Results

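Interferon-stimulated genes are switched on when interferon binds its receptor and the kinases JAK1 and TYK2 activate transcription factors, among them STAT2, which reaches DNA together with IRF9. Their products sense viral RNA or DNA, block the entry, replication or release of viruses, and feed back on the signal. Many tumour lines, triple-negative breast cancer lines among them, are known to express part of this set without added interferon. Monomethylation of lysine 4 on histone H3 (H3K4me1) marks enhancers and the flanks of active gene starts, and often drops at the start of a strongly active gene itself. The 40 genes described here were named as a list of interferon-stimulated genes and not by any measured value. The list was, however, chosen with earlier results of these data known. All 40 matched a protein-coding symbol among the 19970 protein-coding genes on chromosomes 1 to 22 and X, and each was measured over its RefSeq record with 5 kb either side.

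The cells were MDA-MB-231, an established mesenchymal-like line of triple-negative breast cancer, with ARID1A knocked out or as controls. ARID1A belongs to SWI/SNF, a complex that moves nucleosomes, and contacts DNA. There were 8 samples in 4 groups of 2: ARID1A knockout immunoprecipitates and inputs, and control immunoprecipitates and inputs, and neither how the knockout was made nor whether it is a clone is given in the labels. The deposited data were 1 peak list for the knockout (73603 peaks) and 1 for the control (83000 peaks), in hg38 coordinates. Sequencing depth is unknown from these lists, and since each genotype has a single list, nothing shows how replicates varied. Every difference below describes these lists and carries no p-value. Fewer cells with the mark and less mark per cell cannot be told apart in such bulk samples. The marker genes of the line, VIM, CD44, AXL and CAV1, all held peaks in both lists, and ALB, a hepatocyte gene, held none in either. The leukocyte genes CD3E, CD14 and PTPRC held peaks in both lists, PTPRC with 21892 covered bases in the knockout list and 9452 in the control list. Of the luminal breast genes, ESR1 and GATA3 held peaks in both lists and PGR in the control list alone.

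More of the interferon-stimulated genes had wider than narrower H3K4me1 coverage in the knockout list, set against the control list. The call used here asks for at least 1000 bases of difference in the length covered by peaks. On this rule 17 of the 40 were higher in the knockout list (42.5%), 7 were lower (17.5%) and 16 were neither. Over all protein-coding genes 20.2% were called higher and 30.0% lower. Among the 16810 genes with a peak in either list, the values were 24.0% and 35.7%. The median difference, knockout minus control, was 598.5 bases over the 40 genes, -337 bases over genes with a peak and 0 over all genes. Counted once per base, the windows of the 40 genes held 216575 covered bases in the knockout list and 179929 in the control list, whereas the whole lists covered 176 Mb in the knockout and 183 Mb in the control. The excess depended on which peaks were counted. When peaks under a −log10 q of 5 were left out of both lists, 14 members were higher and 6 lower, against 26.7% and 17.7% of all genes. When peaks under a fold enrichment over input of 4 were left out, 4 were higher and 8 lower, against 14.5% and 19.4% of all genes, so the split then did not favour the knockout list. The difference at IFI44L, IFIH1, IFIT1 and HERC5 was 0 under that fold limit, since none of their differing peaks reached it. Nearest the 1000-base limit, OAS2 (1088) and IFI35 (-1056) lay just inside and CMPK2 (970) and MX1 (-943) just outside.

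**Figure D1:**
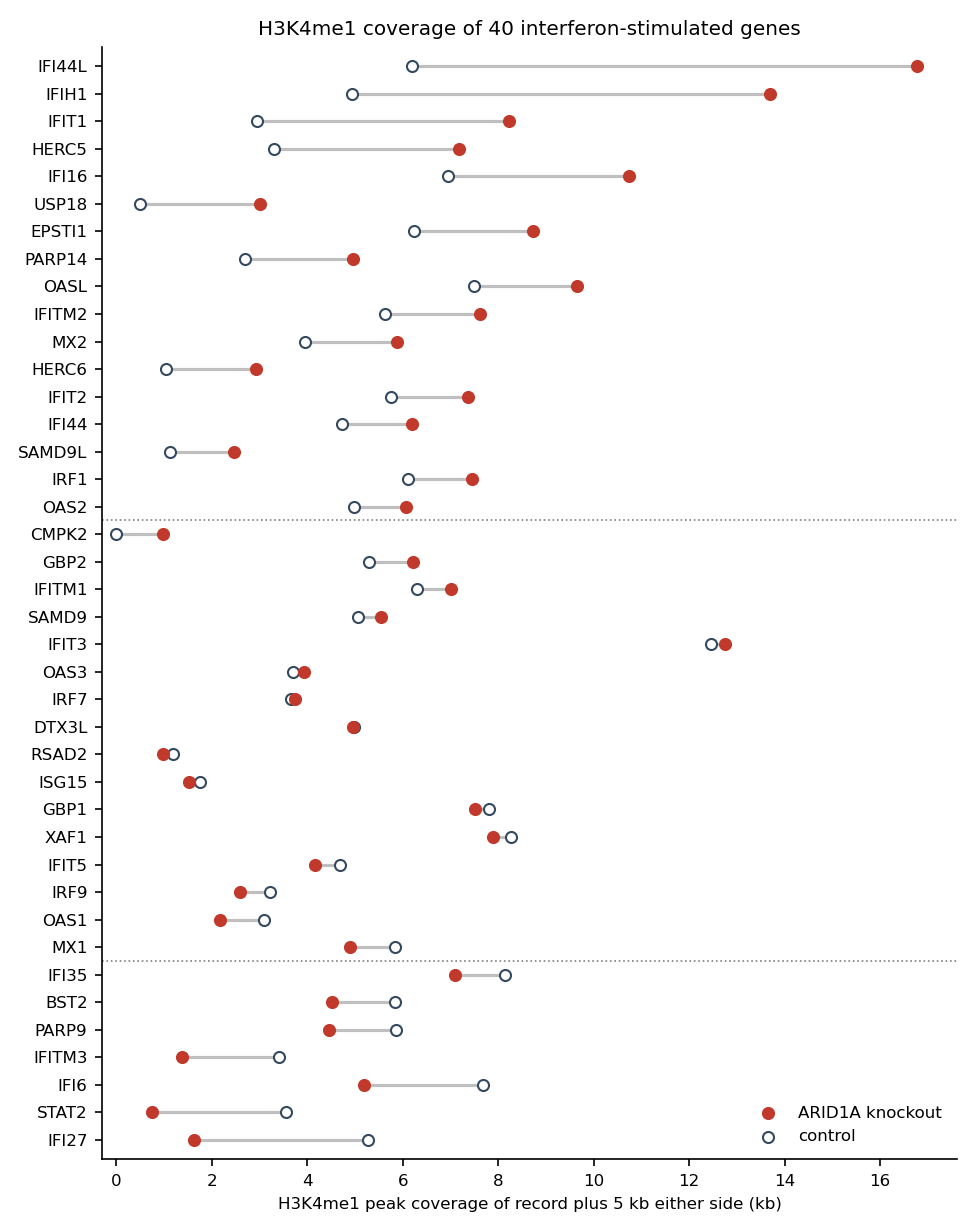
Bases covered by H3K4me1 peaks at each of the 40 interferon-stimulated genes, in kb over the gene record with 5 kb either side. Filled points are the ARID1A knockout list and open points the control list, 1 value per list, and dotted lines mark differences of 1000 bases. The 17 genes above the upper line run down from IFI44L, and the 7 below the lower line end with IFI27.

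All 40 genes held at least 1 peak in the knockout list and 39 held one in the control list, where CMPK2 held none. Among all protein-coding genes 79.8% held a peak in the knockout list and 81.9% in the control list. Coverage per gene lay between 749 and 16772 bases in the knockout list, with a median of 5365.5, and between 0 and 12448 in the control list, with a median of 4978.5. The median share of a member's window that was covered was 18.2% in the knockout list and 17.5% in the control list, against 11.4% and 12.1% over genes with a peak. The windows of 24 of the 40 genes also reached another protein-coding record, so some of the peaks counted may belong to a neighbour. Of the 16 genes with no such neighbour, 8 were higher in the knockout list and 1 was lower. Neighbouring members shared peaks: 7 knockout peaks lay at more than 1 member, touching 12 members, and 6 control peaks did so, touching 10. Of the 28 members that shared no peak, 13 were higher and 5 lower. Over all protein-coding genes 20.2% were higher and 30.0% lower, but the shares among genes picked in these ways were not counted. The choice of these subsets, and of the one by input background given later, was made with the data in view.

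The largest excess in the knockout list lay at IFI44L, an interferon-induced gene of chromosome 1 (78620448 to 78646145). It had 16772 covered bases in 3 knockout peaks and 6200 in 2 control peaks. A single knockout peak spanned the gene start, reaching 4504 bases before it and 9264 bases into the gene (13769 bases, pileup 19.9, fold 3.10, −log10 q 4.75). The control peak at that place reached 2629 bases before and 1654 bases after the start (4284 bases, pileup 16.3, fold 3.04, −log10 q 3.67). The fold and −log10 q are the authors' values of each peak against its own input and rank peaks within a list only. Within 20 kb of the start on either side the knockout list had 5 peaks covering 20610 bases and the control list a single peak covering 4284. The 4 knockout peaks without a control counterpart there were weak, with −log10 q between 1.13 and 2.28. IFI44, the neighbouring gene with a related product, had 6183 knockout and 4723 control bases. Its main peak, 5348 bases wide in the knockout list and 4723 in the control list, also lay in the window of IFI44L.

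The next largest excess was at IFIH1, which encodes MDA5, the cytoplasmic sensor of long double-stranded RNA (chromosome 2, 162267074 to 162318684), with 13690 knockout and 4931 control bases. A knockout peak of 10101 bases ran from 2731 bases before the start to 7369 bases into the gene. In the control list the same stretch held 2 separate peaks of 1954 and 1233 bases, on either side of an uncovered start. That knockout peak also reached the record of GCA, the gene next to IFIH1. IFIT1, whose product binds viral RNA by its end (chromosome 10, 89392623 to 89406487), had 8232 knockout bases and 2943 control bases, each from 1 peak over the start. The knockout peak reached 6530 bases into the gene and the control peak 1716, and upstream they ended 1701 and 1226 bases before the start. The wide IFIT1 peak was weak in each list, with −log10 q 2.82 in the knockout list and 3.20 in the control list. HERC5, the main ligase that attaches ISG15 to proteins in human cells (chromosome 4, 88457119 to 88506163), had 7183 knockout and 3311 control bases. Its start was uncovered in both lists, and the excess came from a downstream peak of 5920 bases in the knockout list, where the control list had 2 peaks of 1888 and 458 bases.

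Coverage was lower in the knockout list at IFI27, which encodes a small interferon-induced membrane protein (chromosome 14, 94105894 to 94116690, with its outermost promoter entry inside the record), with 1616 knockout and 5270 control bases. The peak over its start was 885 bases wide in the knockout list and 3973 in the control list, with −log10 q 2.09 and 4.81. STAT2, the signal transducer that carries the interferon response into the nucleus (chromosome 12, 56341597 to 56360107), had 749 knockout bases in 1 peak and 3542 control bases in 3. The peak inside STAT2 was found in both lists, 749 bases wide in the knockout list and 1105 in the control list. The 2 control peaks with no knockout counterpart overlapped the neighbouring records of IL23A and APOF, so most of this deficit lay outside STAT2, and the record alone held 749 knockout and 1105 control bases. IFI6, an antiviral membrane protein gene (chromosome 1, 27666064 to 27672192), had 5194 knockout and 7675 control bases. The knockout list had 2 peaks of 2713 and 1918 bases with an uncovered stretch between them, where 1 control peak of 6997 bases covered the start and most of the gene. The narrower of these knockout peaks had a −log10 q of 7.91, above the 4.57 of the control peak, and with peaks under 5 left out IFI6 was higher in the knockout list by 1803 bases.

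**Figure D2:**
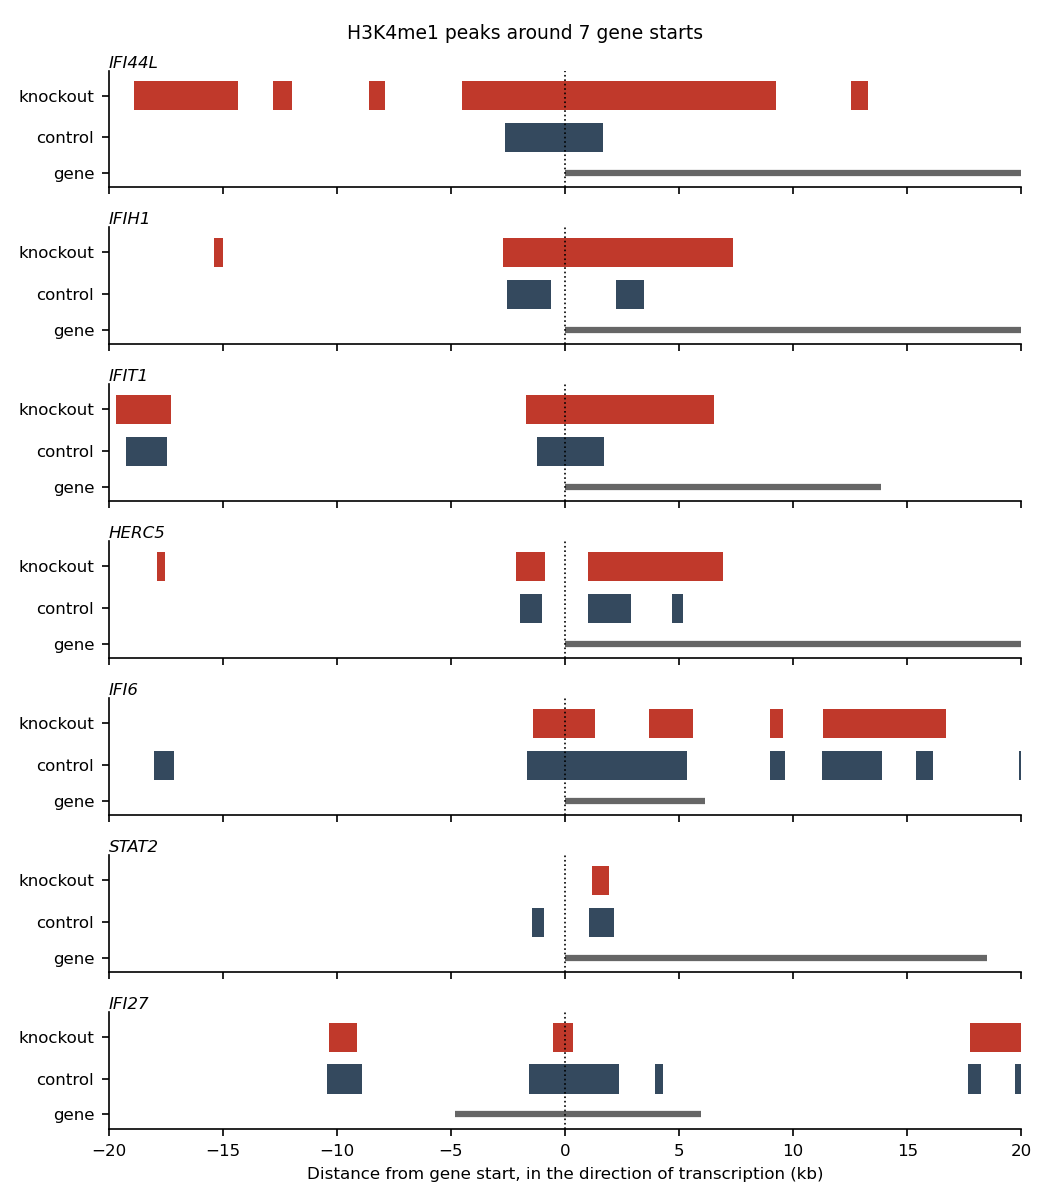
H3K4me1 peaks within 20 kb of 7 gene starts, drawn as distance from the start in kb in the direction of transcription. Each gene has the ARID1A knockout peaks in the upper row, the control peaks below them and the gene record as a grey line. At IFI44L, IFIH1, IFIT1 and HERC5 the knockout peaks reach farther into the gene, and at IFI6 and IFI27 the control peaks cover more of the first 5 kb.

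Promoters are shown for the 10 genes with the largest differences among those that hold a match to the interferon response element, a short sequence close to the start, so that its place can be set beside the peaks. Holding a match was the condition for being shown: IFI16, STAT2 and HERC6 had differences of like size and no match in their promoter sequences, and are not shown. USP18, OASL, IFITM2, MX2 and IFIT2 also had larger differences than IFI44, the last gene shown, but had no promoter sequence to search. The interferon-stimulated response element is bound by complexes that hold STAT2 and IRF9 and by IRF family factors, and its core was searched as GAAA, any 2 bases, and GAAA again, on both strands, overlapping matches included. Sequences are RefSeq promoters of GRCh38.p14, 5′ to 3′ along the gene from 250 bases before the start to 50 bases from the start on, and capitals mark every match.
IFI44L, chr1:78620198-78620497, plus strand: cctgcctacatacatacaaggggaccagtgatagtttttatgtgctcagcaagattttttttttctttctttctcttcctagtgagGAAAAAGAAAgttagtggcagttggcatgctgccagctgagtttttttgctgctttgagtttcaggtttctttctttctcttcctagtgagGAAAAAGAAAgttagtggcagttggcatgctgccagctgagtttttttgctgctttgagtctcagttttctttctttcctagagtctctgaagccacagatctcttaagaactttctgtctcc
IFIH1, chr2:162318635-162318934, minus strand: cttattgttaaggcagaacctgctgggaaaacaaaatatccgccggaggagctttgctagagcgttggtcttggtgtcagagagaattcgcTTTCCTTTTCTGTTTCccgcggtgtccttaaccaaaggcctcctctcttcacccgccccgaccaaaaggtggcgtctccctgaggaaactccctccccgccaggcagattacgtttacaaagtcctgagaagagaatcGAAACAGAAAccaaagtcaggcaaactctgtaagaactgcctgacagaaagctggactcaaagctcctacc
IFIT1, chr10:89392373-89392672, plus strand: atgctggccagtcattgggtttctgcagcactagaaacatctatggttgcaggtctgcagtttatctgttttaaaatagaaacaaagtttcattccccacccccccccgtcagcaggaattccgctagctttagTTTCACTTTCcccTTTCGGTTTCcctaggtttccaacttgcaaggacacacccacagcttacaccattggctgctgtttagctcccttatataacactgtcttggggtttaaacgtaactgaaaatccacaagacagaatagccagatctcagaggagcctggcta
HERC5, chr4:88456869-88457168, plus strand: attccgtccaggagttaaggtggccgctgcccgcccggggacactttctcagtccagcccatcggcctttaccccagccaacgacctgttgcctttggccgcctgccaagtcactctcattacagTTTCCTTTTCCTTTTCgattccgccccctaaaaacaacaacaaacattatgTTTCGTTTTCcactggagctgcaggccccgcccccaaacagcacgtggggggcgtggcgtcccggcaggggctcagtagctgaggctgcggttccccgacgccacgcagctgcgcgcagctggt
IFI27, chr14:94110486-94110785, plus strand: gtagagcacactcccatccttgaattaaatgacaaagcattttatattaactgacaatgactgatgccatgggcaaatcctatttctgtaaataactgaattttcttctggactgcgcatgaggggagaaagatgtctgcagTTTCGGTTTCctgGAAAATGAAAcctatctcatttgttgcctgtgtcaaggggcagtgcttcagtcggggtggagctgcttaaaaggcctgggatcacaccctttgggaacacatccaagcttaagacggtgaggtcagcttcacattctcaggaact

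Both matches of IFI44L sat in a stretch covered in both lists, as did those of IFIT1 and IFI27. All 3 matches of IFIH1 lay in the knockout peak and outside any control peak. All 3 matches of HERC5 lay in the uncovered gap of both lists. The other 5 of these 10 genes are given as a shorter stretch, each match with up to 15 bases on either side.
EPSTI1, chr13:42992267-42992306, minus strand: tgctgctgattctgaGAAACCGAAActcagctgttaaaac
IFI6, chr1:27672261-27672363, minus strand: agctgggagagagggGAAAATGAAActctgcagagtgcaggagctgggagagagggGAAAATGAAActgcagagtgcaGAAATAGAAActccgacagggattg
PARP14, chr3:122680795-122680834, plus strand: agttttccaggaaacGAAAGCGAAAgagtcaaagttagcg
IFITM3, chr11:320871-320927, minus strand: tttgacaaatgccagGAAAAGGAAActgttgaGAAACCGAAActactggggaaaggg
IFI44, chr1:78649756-78649795, plus strand: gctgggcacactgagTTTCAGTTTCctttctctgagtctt

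The matches of EPSTI1, IFI6 and IFI44 were covered in both lists, and those of PARP14 and IFITM3 were covered in neither. Promoter sequences matched 32 of the 40 genes by gene ID, in 43 windows of 300 bases, some of them overlapping windows of one gene or of neighbours that face each other. A match was found in 26 of the 43 windows (60.5%, 95% exact interval 44.4 to 75.0), against 3.58% of the 34961 windows of the whole table. The second interferon element, the gamma-activated site, was searched as TTCNNNGAA, which reads alike on both strands. It was found in 11 of the 43 windows (25.6%, 13.5 to 41.2), against 7.66% of all windows. A match is a string of letters and not a measured site. The response element did not separate the directions: 7 of 11 higher genes with a promoter sequence held it, 5 of 7 lower genes and 10 of 14 genes that were neither. The 22 genes with a match had at least 1 match under a knockout peak at 14 and under a control peak at 12, with 10 in both. DTX3L and PARP9, which share 1 match, and IFIH1 and BST2 had theirs covered in the knockout list only. MX1 had a match covered in the control list only, and so had RSAD2, at a second promoter inside the gene.

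The starts themselves were covered by a peak more often at these genes than at genes in general. A peak overlapped the promoter window at 20 of 32 starts in the knockout list (62.5%, 43.7 to 78.9) and at 17 in the control list (53.1%, 34.7 to 70.9). Over all 15811 genes with a promoter sequence, the values were 25.7% in the knockout list and 16.6% in the control list. The intervals cover counting error over genes only, and genes are not independent replicates. Each gene was taken at its outermost start, and some calls depended on that choice. The 4 promoter windows overlapped in the knockout list alone were those of DTX3L, PARP9, IFIH1 and RSAD2. That of MX1, a dynamin-like GTPase that blocks viral replication, was overlapped in the control list alone. These are 12.5% and 3.125% of the 32 starts, near the 13.3% and 4.22% of all genes with a promoter sequence. Another RSAD2 window, inside the gene, was covered in the control list alone, and another MX1 window was covered in both lists. The first base itself lay in a peak at 20 starts in the knockout list and 16 in the control list, and at BST2 it did so in the knockout list alone, the control peak ending 158 bases before it. DTX3L and PARP9 run in opposite directions with overlapping first bases, so 1 knockout peak covered both starts. RSAD2 and CMPK2 are arranged in the same way, but the knockout peak over the start of RSAD2 ended 160 bases short of the outermost start of CMPK2. The inner promoter windows of CMPK2 were covered in full by that knockout peak and not at all in the control list. At 29 of the 32 starts in the knockout list and 28 in the control list a peak lay within 1000 bases, against 54.7% and 52.5% of all genes.

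The starts of 15 genes lay inside a peak of each list. That peak was wider in the knockout list at 10 of them and narrower at 5, with median widths of 5348 bases in the knockout list and 4284 in the control list. Over the 1677 genes of the whole set whose start lay in a peak of both lists, the knockout peak was wider at 40.3%, with median widths of 2918 and 3161 bases. A few genes carried the difference in width. The knockout peak was wider by 9485 bases at IFI44L, 5289 at IFIT1, 2164 at IFITM1 and 1085 at IFI35, and at the other 6 wider peaks by at most 625 bases. It reached farther into the gene at 7 of the 15 and farther before the start at 10, but both median reaches were shorter in the knockout list. The median reach into the gene was 2190 bases in the knockout list and 2423 in the control list, and before the start 1407 and 1672. Between 5 and 15 kb into the gene, the 32 members averaged 1684 covered bases in the knockout list and 1337 in the control list, and genes with a peak averaged 1346 and 1610. In that stretch 12 members had more bases in the knockout list (37.5%) and 10 had fewer (31.25%). Among genes with a peak, 20.6% had more there and 36.2% had fewer. Within 1 kb of the start the knockout list had more bases at 14 members and fewer at 7, and genes with a peak also had more there (43.6% more, 24.0% fewer), so that part of the pattern was shared with genes in general.

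**Figure D3:**
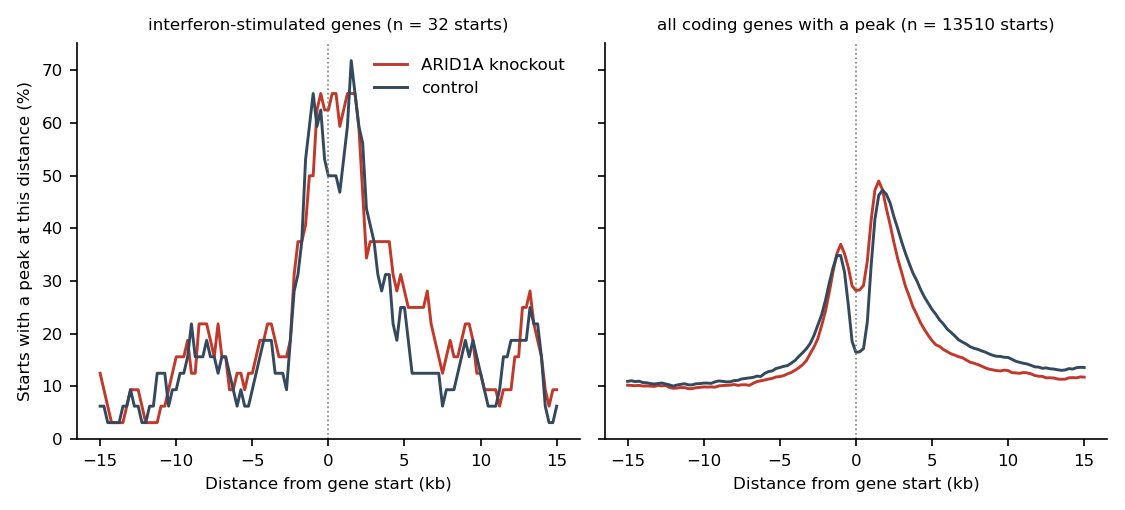
Percentage of gene starts with an H3K4me1 peak at each distance from the start in kb, negative before the start, for 32 interferon-stimulated genes (left) and 13510 genes with a peak (right). Red lines are the ARID1A knockout list and dark lines the control list. At the start itself 20 of the 32 members have a peak in the knockout list and 16 in the control list, and all genes with a peak are at 28.2% and 16.5%. The control list dips at the start in both panels, whereas the members show little dip in the knockout list.

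The RNA sensors and RNA-directed effectors were higher in the knockout list at 5 of 9 genes and lower at none by the 1000-base rule, against 20.2% and 30.0% of all genes. Besides IFIH1 and IFIT1 these were OASL, IFIT2 and OAS2. With peaks under a −log10 q of 5, or under a fold of 4, left out, OASL and OAS2 were lower in the knockout list, by differences of -448 and -232 bases under either limit. Under the −log10 q limit the difference was 97 bases at IFIH1, 0 at IFIT1 and 7375 at IFIT2. No IFIT2 peak reached a fold of 4, the highest being 3.68 in the knockout list and 3.59 in the control list. As given above, IFIH1 and IFIT1 had a difference of 0 under the fold limit. IFIT2, a partner of IFIT1, had 7375 knockout and 5758 control bases. IFIT3, which stabilises IFIT1, had the widest control coverage of all members with 12754 knockout and 12448 control bases, almost all of it from 1 peak of 12437 bases in the knockout list and 12304 in the control list. IFIT5, an RNA-binding relative, had 4169 and 4680 bases. Over the whole IFIT cluster (chromosome 10, 89302046 to 89420997, with 5 kb either side) the knockout list covered 41396 bases and the control list 36935, and both lists had 10 peaks there. The record of LIPA, a lysosomal lipase gene, overlaps the cluster, and most peaks at these genes lie in it too.

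The oligoadenylate synthetases make the messenger that activates RNase L, except OASL, which has no such activity and acts on RNA sensing. OASL had 9640 knockout and 7490 control bases, and its strongest peak covered its record end with −log10 q 12.8 in the knockout list and 9.15 in the control list. OAS2 had 6066 and 4978 bases, OAS3 3934 and 3697, and OAS1 2159 and 3101. Peaks at the lower ends of the OAS3 and OAS2 records fell into the window of the gene before them and are counted at both. Counted once, the OAS1, OAS3 and OAS2 cluster was nearly even, with 10877 knockout and 10757 control bases in 4 peaks each. One of the strongest knockout peaks at any member lay there, inside OAS2 (chromosome 12, 113006144 to 113008291, −log10 q 14.8, as at IFI35), and its control counterpart had a −log10 q of 12.0.

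Among genes of the ISG15 system, which attaches and removes the ubiquitin-like protein ISG15, 3 of 4 were higher in the knockout list and none was lower, against 20.2% and 30.0% of all genes. With peaks under a −log10 q of 5 left out, the difference was 0 at USP18 and HERC6. USP18, the protease that removes ISG15 and restrains the interferon receptor (chromosome 22, 18150170 to 18177397), had 3005 knockout bases and 483 control bases, each in a single peak. The knockout peak crossed the record end at 18150170 and reached 1687 bases inside, whereas the control peak ended outside the record. HERC6, a relative of HERC5, had 2921 knockout and 1047 control bases, all in peaks with a −log10 q below 3. ISG15 itself had 1519 knockout and 1747 control bases, and in neither list did a peak touch its record. Over HERC6 and HERC5 together the knockout list covered 10104 bases and the control list 4358, with HERC5 holding most of the difference.

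IFI16, a sensor of DNA (chromosome 1, 158999976 to 159055151), had 10745 knockout and 6954 control bases, and its difference of 3791 bases lay mostly inside the record, which held 9225 knockout and 5994 control bases. The input background implied at IFI16 differed between the lists too, by a ratio given later with those of the other members. Of the GTPases, MX2, which blocks nuclear entry of lentiviruses, had 5869 knockout and 3955 control bases, with a peak of 1690 bases inside the gene found in the knockout list only. MX1 had 4883 and 5826 bases. A knockout peak of 1459 bases beyond its end had no control counterpart, and the peak near its start was 1256 bases wide in the knockout list and 3072 in the control list. GBP1 and GBP2, guanylate-binding proteins that act on intracellular pathogens, differed by less than 1000 bases. GBP1 had 7513 knockout and 7798 control bases, and GBP2 6207 and 5283.

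The transcription factors of the response were mixed. IRF1, an early activator (chromosome 5, 132481609 to 132490773), had 7455 knockout and 6117 control bases. A knockout peak of 4376 bases upstream of IRF1 stood where the control list had 2 peaks of 1680 and 1411 bases, and with the same merging distance in both lists the difference was 88 bases instead of 1338. IRF7, the factor that amplifies interferon production, had 3750 and 3655 bases, and IRF9, the DNA-binding partner of STAT2, had 2593 and 3221. The membrane proteins that hold back virus entry, IFITM1, IFITM2 and IFITM3, lie within 1 cluster of chromosome 11 and shared most of their peaks. IFITM2 was called higher (7627 knockout and 5631 control bases) and IFITM3 lower (1381 and 3413), whereas the cluster counted once had 9288 and 9324 bases. A knockout peak of 8465 bases covered IFITM2, most of IFITM1 and the space between them, and 2 control peaks of 3023 and 6301 bases overlapped its ends. In neither list did a peak touch the record of IFITM3. BST2, or tetherin, which holds budding viruses at the cell surface, had 4519 knockout and 5839 control bases. Its knockout coverage came from 1 peak of −log10 q 9.31 and its control coverage from 2 weak peaks, so that at a −log10 q of at least 5 it was higher in the knockout list by 4519 bases.

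**Figure D4:**
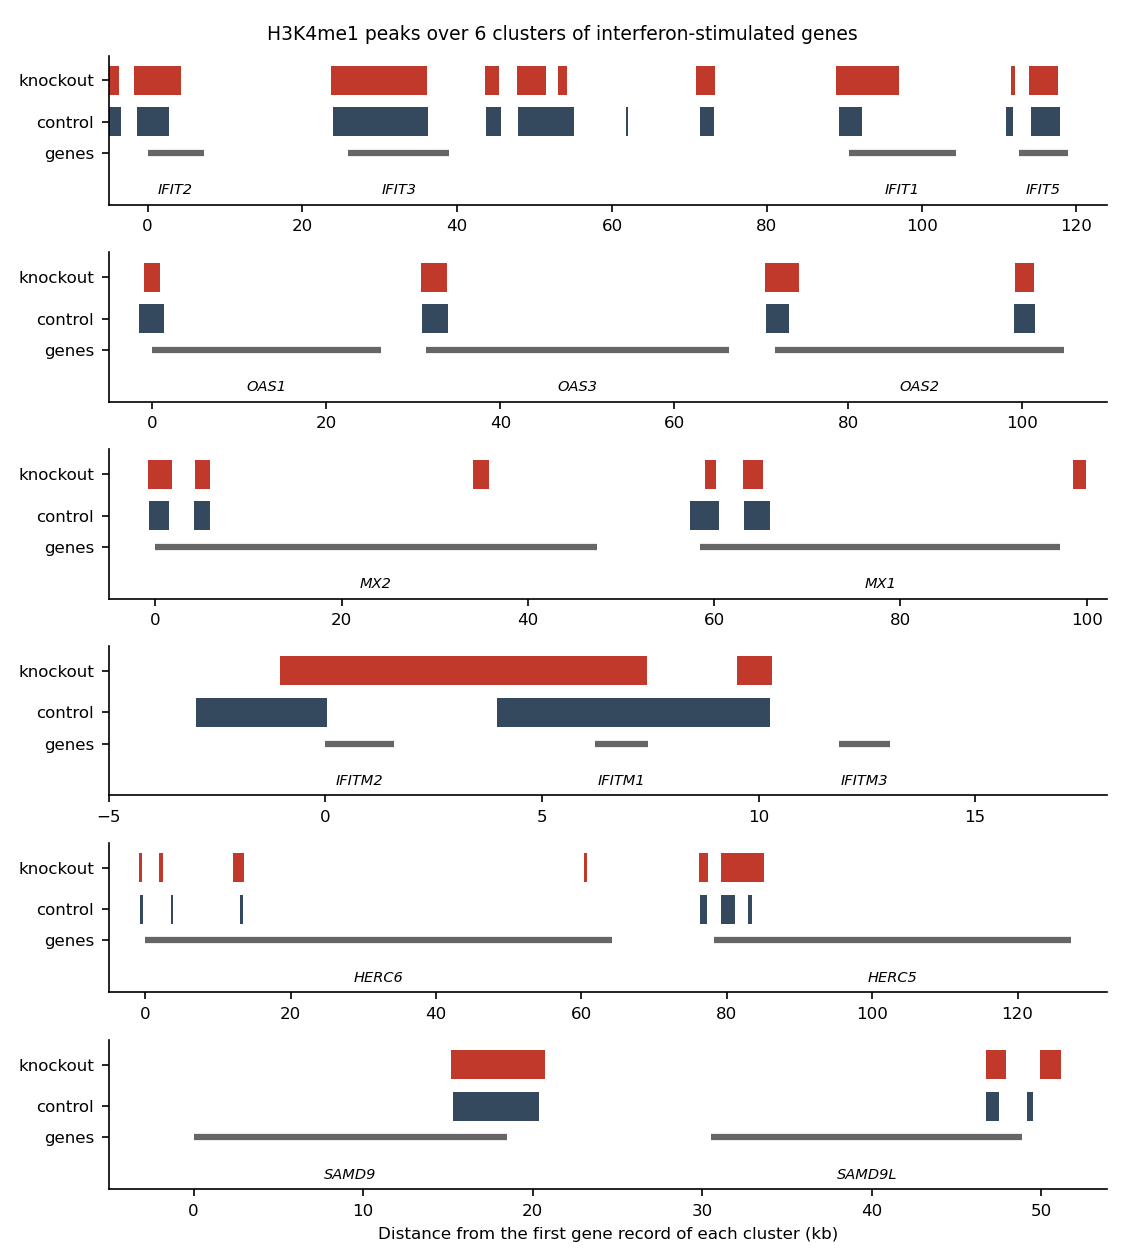
H3K4me1 peaks over 6 clusters of interferon-stimulated genes, drawn as distance in kb from the first gene record of the cluster with 5 kb either side. ARID1A knockout peaks are in the upper row, control peaks in the middle row and gene records below. The IFIT, OAS, MX and SAMD9 clusters hold most of their peaks in both lists, and the difference at HERC5 is 1 wide knockout peak.

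PARP9 and DTX3L, which form a complex of ADP-ribosylation and ubiquitin transfer, start close to each other on chromosome 3. A knockout peak of 2901 bases covered both starts, and the control list had 2 peaks of 734 and 1958 bases on either side. PARP9 had 4448 knockout and 5865 control bases, and a control peak of 1731 bases inside the gene had no knockout counterpart. DTX3L had 4959 and 4979. PARP14, a relative that modifies STAT signalling, had 4949 and 2684, with a wide weak knockout peak of 3096 bases inside the gene (−log10 q 1.89) that had no control counterpart. SAMD9L, which restrains translation in virus-infected cells, had 2463 knockout and 1124 control bases, and its neighbour SAMD9 had 5537 and 5056. CMPK2, a mitochondrial nucleotide kinase, and RSAD2, which encodes viperin, an enzyme that makes a chain-terminating nucleotide, had 970 bases each in the knockout list from 1 weak peak over the start of RSAD2. In the control list CMPK2 had 0 bases and RSAD2 had 1186, from a weak peak inside the gene. XAF1, a proapoptotic gene, had a knockout peak of 6416 bases with −log10 q 13.3 and a control peak of 7034 bases with −log10 q 25.0, the highest of all control peaks at members. EPSTI1, on chromosome 13, had 8727 knockout and 6244 control bases. IFI35, which binds other induced proteins, had 7090 and 8146, mostly in a peak that also covered RPL27. That peak was wider in the knockout list, with 9521 bases against 8436 in the control list. The deficit lay in the flank beyond the gene end, with 16 knockout and 1913 control bases, in peaks that overlapped the record of VAT1.

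Most peaks at the members were found in both lists. Of the 76 knockout peaks at members, 12 overlapped no control peak (15.8%, 8.43 to 26.0), and the whole knockout list was at 21.3%, inside that interval. Of the 79 control peaks, 9 overlapped no knockout peak (11.4%, 5.34 to 20.5), and the whole control list was at 28.2%, above that interval. Peaks at members were also somewhat stronger, with a −log10 q of at least 5 at 46.1% in the knockout list and 35.4% in the control list, against 37.5% and 28.8% of the whole lists. The unmatched peaks were weak, with a median −log10 q of 1.88 in the knockout list and 2.09 in the control list. The strongest unmatched peaks reached 5.47, beside SAMD9L in the knockout list, and 6.63, at IL23A in the window of STAT2 in the control list.

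The input background implied by the lists differed between members. It was estimated as (pileup + 1) / fold − 1 for each peak, which assumes a pseudocount of 1 in the deposited fold. The ratio of knockout to control medians was 1.25 over all peaks. Relative to that, the ratio lay between 0.622 (IRF9) and 2.09 (EPSTI1) over 39 members, with a median of 1.03. It was above 1.2 at 6 members, which besides EPSTI1 were SAMD9, BST2, IFI16, SAMD9L and HERC5, and below 0.8 at IRF9 and USP18. It was 1.64 at SAMD9, 1.42 at IFI16, 1.32 at SAMD9L, 1.26 at HERC5 and 0.705 at USP18. Its part in the differences of these genes, BST2 and EPSTI1 included, was not tested. Its median was 1.03 at the higher genes, 0.972 at the lower genes and 0.960 at the others. Among the 31 members between 0.8 and 1.2, 12 were higher in the knockout list (38.7%) and 6 were lower (19.4%). Over all protein-coding genes, at any ratio, 20.2% were higher and 30.0% lower, and the shares within that range were not counted.

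Of 55 other genes of the interferon pathway, 16 were higher in the knockout list and 18 lower, and 6 had no peak in either list. Over all protein-coding genes 20.2% were higher and 30.0% lower, and among genes with a peak 24.0% and 35.7%. The receptor chains were higher at 4 of 6. These were IFNAR1 (5166 knockout and 3676 control bases), IFNAR2 (5516 and 1906), IFNGR1 (7434 and 4322) and IL10RB (5612 and 2015). IFNGR2 was lower (10876 and 14267). IFNAR2, IL10RB, IFNAR1 and IFNGR2 lie in a single stretch of chromosome 21, and the windows of IFNAR2 and IL10RB overlap, so both may count the same bases. The relative input background was 0.611 at IFNAR2, 0.722 at IFNAR1, 0.856 at IL10RB and 1.22 at IFNGR1. Its part in these differences was not tested. Among sensors and adaptors 2 of 8 were higher and 4 lower. The largest excesses of the 55 were at TRIM5, a capsid-binding restriction factor (16203 knockout and 6982 control bases), SP100, a nuclear body protein gene (26087 and 18250), and RIGI, the sensor of short RNA ends (12414 and 5820). The largest deficits were at PIAS1, an inhibitor of the signal (10300 and 19743), IRF2, an antagonist of IRF1 (25406 and 32391), and CGAS, the sensor of cytoplasmic DNA (9489 and 14693). The 6 genes with no peak were the ligands IFNB1, IFNE, IFNA1, IFNA2 and IFNG and the sensor TLR3. IFNB1, IFNA2, IFNA1 and IFNE lie in a single stretch of chromosome 9 (21077104 to 21482313), so they are not separate observations. The peak lists do not show whether the DNA of that stretch was present in these cells.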

How the data were processed

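Immunoprecipitates of H3K4me1 and their inputs were grouped by title. Micrococcal nuclease cut the chromatin, per the labels' protocols, whose text names an H3K4me3 antibody where the antibody label and titles say H3K4me1. The tools named are MACS2 2.2.6 for peaks and Bowtie2 2.3.5.1, on build hg38, per the submitters' processing notes. The sources used here do not say which settings were chosen, how duplicates were handled or how replicates entered each call. Each deposited line holds, per the file headers, a peak with its length in bases, its pileup (a signal of stacked fragments), its fold enrichment, a ratio over input, and its −log10 q value. The lowest −log10 q was 1.01 in each deposited list. The shortest peaks (361 bases in the knockout list, 312 in the control list) and smallest gaps (1445 and 1249 bases) differed, so that peaks merge more easily in the knockout list.

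Peaks off chromosomes 1 to 22 and X, 3 in the knockout list and 6 in the control list, were left out. Covered bases were counted with Python 3.11.15 and pandas 2.3.3 over RefSeq GRCh38.p14 gene records, by functions tested on simulated intervals. The gene table gives neither exons nor strand, and starts and strand came from the RefSeq promoter table, taking the outermost start of a gene. An overlap of 1 base made a peak a counterpart. Percentages have 95% exact (Clopper-Pearson) intervals, which cover counting error only. The members, the gene lists and the rule for named genes (all members with at least 1000 bases of difference, the others by groups, and up to 3 pathway genes in each direction) were chosen with earlier results of these data known. Alternative thresholds, windows, merging and scaling were run. Some genes of the lists are not reported here.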

Additional observations from a re-analysis of the deposited data

How the results depend on the processing

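No paired analysis was possible because each genotype has a single peak list, and no replicate could be left out for the same reason. Over all 40 members, the number higher in the knockout list was between 12 and 20 in all alternatives but 3: it was 4 with peaks of fold at least 4, 9 with a difference of at least 2000 bases and 9 with a ratio of at least 1.5 as well. The share of all genes called higher was then 14.5%, 11.0% and 9.88%, and over the other alternatives it lay between 14.9% and 27.0%. The number lower was 3 over the record alone, 11 with 50 kb either side, 11 with a difference of at least 500 bases, 4 with at least 2000 and 3 with the ratio, where 24.5%, 46.0%, 38.8%, 18.7% and 15.5% of all genes were lower. Among members with no other coding gene in the window, an alternative chosen after the data were seen, 6.25% were lower. The share called lower among all genes without such a neighbour was not counted. The median difference of 598.5 bases was 24.5 with peaks of −log10 q at least 5, 0 with peaks of fold at least 4, 271.5 with the same merging distance and shortest peak in both lists, 91 over the record alone, 343 with 10 kb either side, 898.7 after scaling by total covered bases, and 271.5 with only peaks that had a counterpart, which was also chosen after the data were seen. It was positive or 0 in every one of these settings. With the same number of peaks per list the counts were 17 and 7 as before.

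Single genes with a call turned round as follows, given as knockout minus control bases. With peaks of −log10 q at least 5 these were BST2 (4519), IFI35 (166), IFI6 (1803), IFITM2 (-3023), OAS2 (-232), OASL (-448), PARP14 (-1860) and PARP9 (1547), and among genes with no call GBP2 (-3350), IFIT5 (3729), GBP1 (1134) and IRF7 (-3655) changed sign to past 1000 bases. With peaks of fold at least 4 they were BST2 (4519), EPSTI1 (-1294), IFI16 (-1122), IFI35 (166), OAS2 (-232), OASL (-448), PARP14 (-1860) and PARP9 (1547), and with no call before IFIT3 (-12448), IRF7 (-3655) and GBP1 (1507). Over the record alone they were BST2 (712) and IFI35 (841), with 10 kb either side IFITM2 (-36) and IFITM3 (1528), and with 50 kb either side IFIT2 (-1547), IFITM3 (1813) and MX2 (-1109), and with no call before GBP1 (2497), IRF7 (-1602), MX1 (2440) and XAF1 (3895). Other changes of sign, all in genes with no call, stayed under 1000 bases. With only peaks that had a counterpart they were IFI35 (166), PARP14 (-831) and PARP9 (314). At a −log10 q of at least 5, IFIH1 kept a difference of 97 bases and IFIT1 of 0. The causes of these changes were not tested. Of the stronger member peaks (−log10 q 5 or more), 2.86% of 35 in the knockout list and 3.57% of 28 in the control list had no counterpart in the full opposite list. The share over all peaks of that strength is not given here, so these values do not set the members apart. Within 1000 bases of the start a peak lay at 90.6% of members in the knockout list and 87.5% in the control list. With 1 mismatch allowed, 81.4% of member promoters held the response element, against 33.0% of all. Depth is unknown, so a missing weak peak does not show that the mark was absent.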
